A study of Mus musculus with 6 samples.

Results

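Interferon-stimulated antiviral genes were followed in long-lived plasma cells, antibody-secreting cells that stay in the marrow for long times. The 36 genes, type I interferon response genes with their receptor and STAT and IRF regulators and without the large interferon-inducible GTPases, were found by gene symbol among the 13642 genes of the deposited table, and all 36 were present. The 6 libraries came from sorted marrow cells of C57BL/6J mice, 3 from old males aged 17 to 19 months and 3 from young females aged 2 to 3 months. The old animals were from a National Institute on Aging colony and the young ones from Jackson or from UCLA, so age, sex and supplier cannot be told apart. No allele, transgene or treatment was given for either group. Cells were sorted as CD138 high and negative for B220, for IgD, for alpha-beta and gamma-delta T cell receptors, and for the myeloid markers CD11b and Gr-1. The design text speaks of independent groups of mice for each age without the number of animals in each. A p-value here therefore sets a difference only against the spread between samples, part of which may be technical.

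Type I interferons bind the receptor chains IFNAR1 and IFNAR2, whose kinases activate STAT proteins. STAT2 and IRF9 are part of the complex ISGF3, which binds the interferon-stimulated response element (ISRE) in target promoters, while the gamma-activated site (GAS) is best known from the response to interferon gamma. The target genes encode sensors of viral nucleic acid, enzymes that degrade or edit RNA, inhibitors of translation and the ubiquitin-like modifier ISG15. Many cells keep some of these genes at a steady level without infection, and others are nearly silent until interferon arrives.

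The promoters are shown because the motifs that define the pathway can be read in them beside the levels that follow. RefSeq promoter windows on GRCm38.p6, from 250 bases before to 50 bases after an annotated start, matched 28 of the 36 genes by symbol. Windows of Usp18, Parp9, Parp14, Dhx58, Oas2, Rtp4, Ifi27l2a and Zbp1 were not used here. An ISRE match was taken as GAAANNGAAA on either strand, and 12 of the 28 genes, or 42.9%, held it in at least 1 window, against 3.99% of all 27025 genes with windows and 3.44% of all 32851 windows. The bases upstream of 4 genes with matches follow, 5′ to 3′ on the gene's strand, with ISRE matches in capitals. In Isg15 and Bst2 neighbouring matches overlap and run together.
Isg15, chr4:156200819-156201068, minus strand: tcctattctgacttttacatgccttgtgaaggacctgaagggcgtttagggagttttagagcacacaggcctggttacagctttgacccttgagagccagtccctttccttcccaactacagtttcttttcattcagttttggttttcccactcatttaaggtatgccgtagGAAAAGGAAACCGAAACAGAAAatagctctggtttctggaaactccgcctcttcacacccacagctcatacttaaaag
Ifit1, chr19:34640639-34640888, plus strand: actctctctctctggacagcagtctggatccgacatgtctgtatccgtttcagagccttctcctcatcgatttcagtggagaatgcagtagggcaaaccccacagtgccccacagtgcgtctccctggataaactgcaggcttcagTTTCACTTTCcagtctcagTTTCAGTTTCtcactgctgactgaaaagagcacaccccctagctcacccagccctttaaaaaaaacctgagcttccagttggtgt
Rsad2, chr12:26456453-26456702, minus strand: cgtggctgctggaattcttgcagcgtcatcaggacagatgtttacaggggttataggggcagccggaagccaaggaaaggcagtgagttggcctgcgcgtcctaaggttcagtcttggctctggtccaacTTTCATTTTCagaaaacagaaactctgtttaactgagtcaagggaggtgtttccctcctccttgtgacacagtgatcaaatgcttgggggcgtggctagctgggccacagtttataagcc
Bst2, chr8:71537473-71537722, minus strand: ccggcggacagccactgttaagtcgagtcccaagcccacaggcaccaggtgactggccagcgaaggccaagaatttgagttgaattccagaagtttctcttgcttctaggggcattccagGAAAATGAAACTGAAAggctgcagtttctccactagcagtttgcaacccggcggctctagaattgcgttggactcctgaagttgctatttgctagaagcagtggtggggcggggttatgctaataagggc

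A GAS match was taken as TTCNNNGAA, which reads the same on both strands. It was in 11 of the 28 genes, or 39.3%, against 9.55% of all genes and 8.30% of all windows. In Bst2 the GAS match overlapped an ISRE match. The upstream bases of Irf1, a regulator with a well-known GAS, and of Isg20, the most abundant of the 36 genes, carry GAS matches, here in capitals. No ISRE match lay in any window of either gene.
Irf1, chr11:53769764-53770013, plus strand: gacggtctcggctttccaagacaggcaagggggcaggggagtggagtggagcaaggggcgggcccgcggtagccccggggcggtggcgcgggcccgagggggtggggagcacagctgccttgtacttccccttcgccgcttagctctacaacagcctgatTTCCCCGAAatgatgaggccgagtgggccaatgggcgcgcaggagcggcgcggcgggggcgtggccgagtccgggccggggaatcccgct
Isg20, chr7:78913174-78913423, plus strand: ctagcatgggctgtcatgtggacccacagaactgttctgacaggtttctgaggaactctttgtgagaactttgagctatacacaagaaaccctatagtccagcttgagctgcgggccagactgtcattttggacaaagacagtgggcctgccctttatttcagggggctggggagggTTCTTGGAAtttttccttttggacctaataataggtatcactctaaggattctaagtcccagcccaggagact

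**Figure D1:**
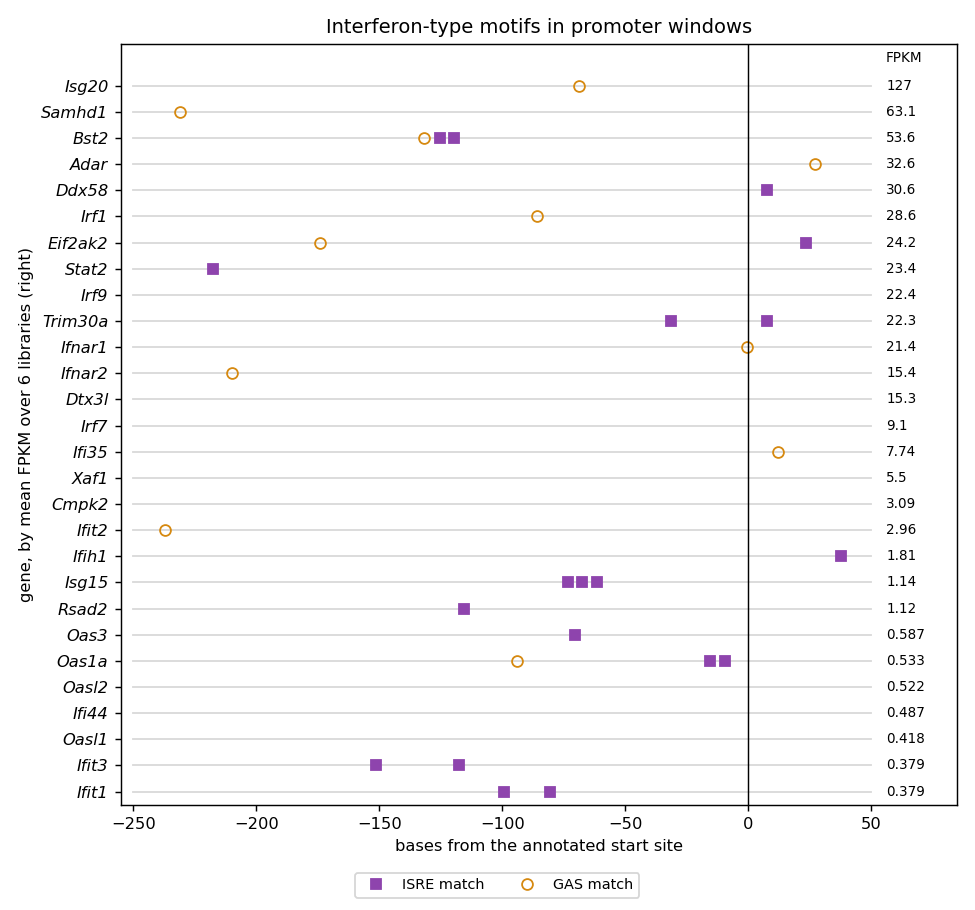
Positions of ISRE matches (filled squares) and GAS matches (open circles) in the promoter windows of 28 genes, in bases from the annotated start, with genes ordered by mean FPKM over the 6 libraries (printed at right). Genes with several windows are drawn on 1 line; ISRE matches occur from Bst2 at 53.6 FPKM down to Ifit1 at 0.379 FPKM.

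Both motifs occurred in genes of every level class. ISRE matches were in 5 of 11 genes with a mean of at least 20 FPKM, in 3 of 10 genes at 1 to 20 FPKM and in 4 of 7 genes under 1 FPKM. GAS matches were in 7 of 11, 3 of 10 and 1 of 7 of the same classes. These are counts of letters in short windows, and binding was not measured. Genes with several windows, such as Isg20, Adar and Irf1, had more bases searched, and the classes were not matched in windows per gene.

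FPKM, fragments per kilobase of gene scaled to the mapped fragments of a library, are the authors' values and allow levels to be compared between genes. Old libraries had 11310, 11880 and 12049 genes above 0 and young libraries 10664, 9974 and 8934. Depth, estimated from the steps between low values, was about 27.1 to 28.3 M reads in old libraries and 22.6 to 25.5 M reads in young ones. Plasma cell markers were present in every library. Their summed level was 9092 to 23020 FPKM in old libraries, lowest in old replicate 3, and 20110 to 23400 FPKM in young ones. In sorted bulk samples, fewer cells of a type and less RNA per cell cannot be told apart.

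The antiviral genes ranged from abundant to nearly undetected. In all, 13 genes, or 36.1%, had a mean of at least 20 FPKM, against 20.8% of all genes. Another 15 genes lay between 1 and 20 FPKM, and 8 genes, or 22.2%, lay under 1 FPKM, against 21.7% of all genes. The abundant set held enzymes that act on RNA or nucleotides (Isg20, Samhd1, Adar, Eif2ak2), sensors (Zbp1, Ddx58), regulators (Irf1, Stat2, Irf9) and the receptor chain Ifnar1, with Bst2, Ifi27l2a and Trim30a. The genes under 1 FPKM were all 5 OAS family genes of the list, Ifit1, Ifit3 and Ifi44. Leaving out any single library kept the abundant set at 12 or 13 genes and the set under 1 FPKM at 8 to 10 genes. Together the 36 genes took 0.169%, 0.234% and 0.191% of summed FPKM in old libraries and 0.154%, 0.242% and 0.278% in young ones, and these ranges overlap.

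**Figure D2:**
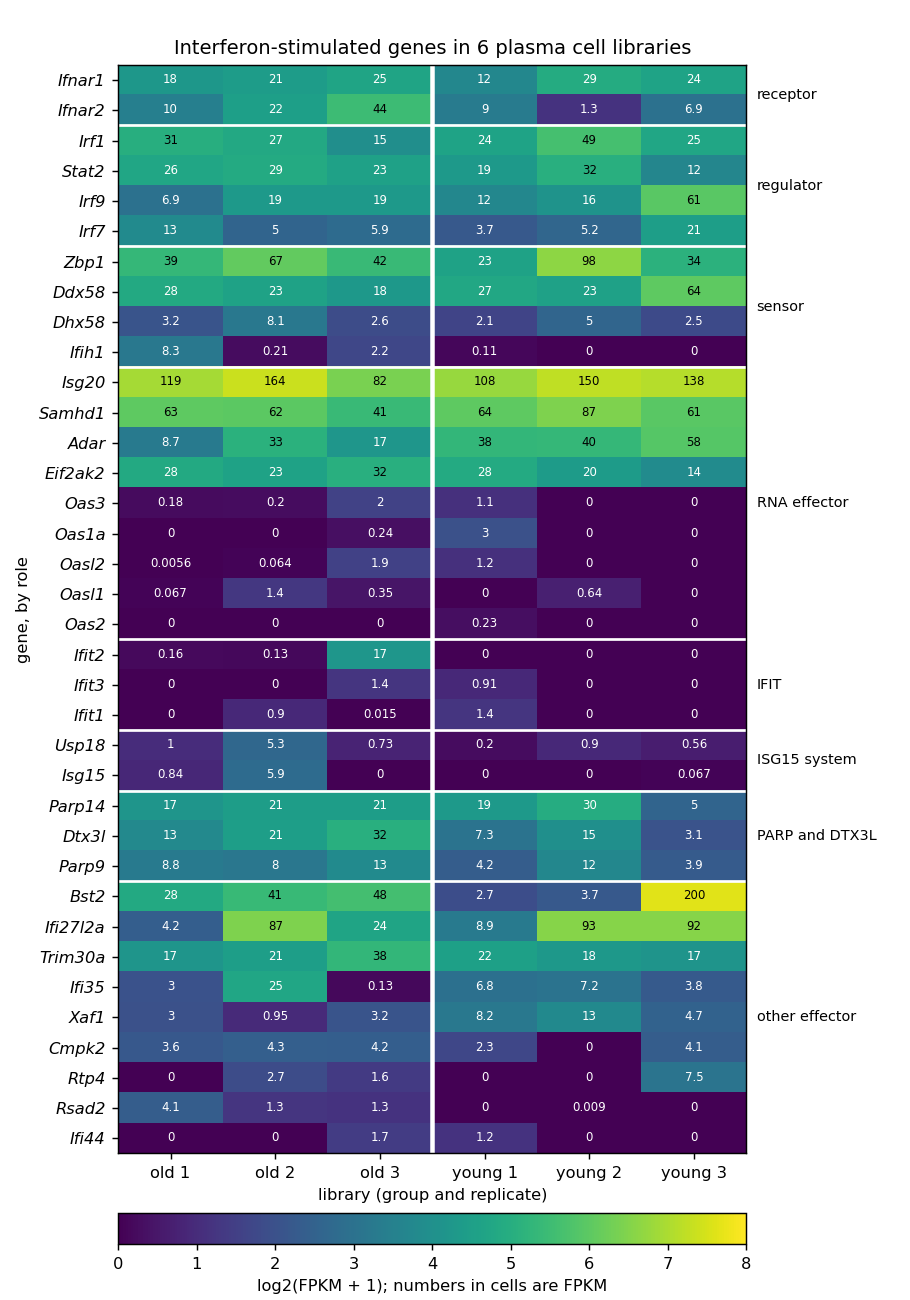
Level of each of the 36 genes (rows, grouped by role and ordered by mean within a role) in the 3 old and 3 young libraries (columns); colour is log2(FPKM + 1) and the numbers are FPKM. Isg20 is between 82.4 and 164 FPKM in every library, while the OAS genes and Ifit1 and Ifit3 stay at or under 2.96 FPKM everywhere.

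Receptor genes were expressed at both ages. Ifnar1 had 17.8, 20.6 and 24.7 FPKM in old libraries and 12.1, 29.1 and 23.9 FPKM in young libraries. Its groups overlap fully, with a log2 difference of 0.03 (95% interval -1.07 to 1.13, limma adjusted p = 0.996), a sign that turned under median-ratio scaling. Ifnar2, the chain that docks STAT2, had 10.1, 21.7 and 43.7 FPKM in old libraries, against 8.97, 1.25 and 6.89 FPKM in young ones. Every old value lay above every young value, but the lowest old and the highest young value were close. The log2 difference of Ifnar2 was 2.00 ± 0.79 (SE) with an unadjusted p = 0.03 and a limma adjusted p = 0.829, so it did not pass. Ifnar2 lies on chromosome 16 (91372783 to 91405589, plus strand, GRCm38), in the same receptor gene cluster as Ifnar1 (91485238 to 91507441).

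Of the regulators, Stat2 and Irf9 were present in all libraries. Stat2 had 25.9, 28.7 and 23.1 FPKM in old libraries and 19.2, 31.8 and 11.9 FPKM in young ones. The old values were close together and lay inside the young range. Irf9, which gives ISGF3 its DNA contact, had 6.91, 18.8 and 19.2 FPKM in old libraries and 12.1, 16.1 and 61.4 FPKM in young ones. Young replicate 3 stood apart, 3.20-fold above the next highest library. Irf7, which amplifies interferon production, was also highest there, with 13.2, 5.02 and 5.94 FPKM in old libraries and 3.74, 5.24 and 21.5 FPKM in young ones. Irf1, a regulator reached through the GAS, had 31.3, 27.3 and 14.6 FPKM in old libraries and 24.0, 49.1 and 25.5 FPKM in young ones, with overlapping groups. The limma adjusted p of these 4 genes lay between 0.854 and 0.995. Irf9 overlaps Rnf31, and Irf7 and Irf1 overlap genes on the other strand (Phrf1 and Gm17334). The use of strand in the counting is not given in the sources used here, so reads of overlapping genes may be shared.

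Sensors of viral nucleic acid differed widely in level. Zbp1, which recognises Z-form nucleic acid, had 39.4, 66.8 and 41.5 FPKM in old libraries and 23.5, 98.4 and 34.2 FPKM in young ones. Ddx58, which encodes RIG-I, had 28.0, 23.2 and 18.0 FPKM in old libraries and 27.0, 23.0 and 64.3 FPKM in young ones. Both were present in every library with overlapping groups, and Ddx58 was highest in young replicate 3, as were Irf9 and Irf7. Of all genes with a mean of at least 20 FPKM, 26.4% were highest in that library, beside 4 of 13 antiviral genes. At 1 to 20 FPKM the share was 18.0%, beside 2 of 15 antiviral genes. Stat2 was lowest in the same library, at 11.9 FPKM. Young replicate 2 was highest for 6 of 13 antiviral genes of at least 20 FPKM, against 19.2% of all genes of that level. At 1 to 20 FPKM it was highest for 2 of 15, against 16.3%. Ifih1, which encodes the related RNA sensor MDA5, had 8.29, 0.212 and 2.24 FPKM in old libraries and 0.110, 0 and 0 FPKM in young ones. The groups did not overlap, but the old value of 0.212 corresponds to about 49 reads and the young value of 0.110 to about 22. Its log2 difference of 1.68 ± 0.91 (SE) had a limma adjusted p = 0.841. Dhx58, the regulator LGP2, stayed between 2.61 and 8.14 FPKM in old libraries and between 2.11 and 5.04 FPKM in young ones.

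Enzymes that act on RNA and nucleotides held both the most and the least abundant genes. Isg20, a 3′ to 5′ exonuclease gene on chromosome 7 (78913424 to 78920396, plus strand), had 119, 164 and 82.4 FPKM in old libraries and 108, 150 and 138 FPKM in young ones. It ranked at percentile 97.9 of all genes by mean level, and its lowest and highest libraries differed 1.99-fold. The log2 difference was -0.15 (95% interval -0.91 to 0.60). Samhd1, which breaks down the nucleotides that viruses need to copy DNA, averaged 55.6 ± 12.2 FPKM in old and 70.6 ± 14.0 FPKM in young libraries (SD, n = 3 each), with values of 63.2, 62.0 and 41.5 against 63.8, 86.7 and 61.2. Eif2ak2, which encodes the translation-blocking kinase PKR, had 28.2, 23.4 and 31.9 FPKM in old libraries and 28.5, 19.8 and 13.6 FPKM in young ones. These 3 genes varied little between libraries, and their groups overlapped.

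Adar, which edits adenosine in double-stranded RNA, was the abundant gene whose groups did not overlap. It had 8.66, 33.4 and 17.4 FPKM in old libraries, against 38.3, 39.5 and 58.3 FPKM in young ones. All old values were below all young values, with means of 19.8 ± 12.6 and 45.4 ± 11.2 FPKM (SD, n = 3 each). The log2 difference was -1.32 ± 0.53 (SE), with an unadjusted p = 0.0315 and a limma adjusted p = 0.831, so it did not pass. Adar lies on chromosome 3 (89715022 to 89753446, plus strand) and overlaps Chrnb2 on the other strand.

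OAS enzymes make the oligoadenylates that activate RNase L, and their genes were close to 0. Oas2 was listed at 0 in 5 libraries and had 0.229 FPKM in young replicate 1. Oas1a had 0, 0 and 0.242 FPKM in old libraries and 2.96, 0 and 0 FPKM in young ones. Oas3 had 0.175, 0.197 and 2.01 FPKM in old libraries and 1.14, 0 and 0 FPKM in young ones. Oas1a was highest in young replicate 1, and Oas3 in old replicate 3 and then young replicate 1. Oasl2 was ordered like Oas3, with 0.00556, 0.0639 and 1.91 FPKM in old libraries and 1.15, 0 and 0 FPKM in young ones. Oasl1, which in mouse restrains Irf7 translation, had 0.0670, 1.45 and 0.355 FPKM in old libraries and 0, 0.641 and 0 FPKM in young ones. Oas1a has close copies in its cluster, so its reads may have been split among them.

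IFIT proteins bind viral RNA and block its translation. Ifit2 had 0.160, 0.135 and 17.5 FPKM in old libraries and was listed at 0 in all young ones. The groups did not overlap, yet the old mean rested on replicate 3, and the other old values correspond to about 17 and 15 reads (log2 difference 1.54 ± 1.12 SE, limma adjusted p = 0.854). Ifit3 was listed at 0 except for 1.36 FPKM in old replicate 3 and 0.910 FPKM in young replicate 1. Ifit1 had 0, 0.897 and 0.0146 FPKM in old libraries and 1.36, 0 and 0 FPKM in young ones. Ifit3 has a near-identical neighbour, Ifit3b, whose symbol was not among the 13642 genes, so its level was not analysed.

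Both genes of the ISG15 system were highest in old replicate 2. Isg15 had 0.839, 5.93 and 0 FPKM in old libraries and 0, 0 and 0.0669 FPKM in young ones. Its level was at or near 0 in 4 of 6 libraries, and its promoter window holds 3 overlapping ISRE matches. Usp18, the protease that removes ISG15 and dampens signalling at IFNAR2, had 1.03, 5.32 and 0.727 FPKM in old libraries and 0.204, 0.903 and 0.555 FPKM in young ones. The groups overlapped for both genes.

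PARP9 and DTX3L form a complex that joins ADP-ribosylation and ubiquitin transfer, and PARP14 is a neighbouring ADP-ribosyltransferase gene product. Dtx3l had 12.7, 21.3 and 32.4 FPKM in old libraries and 7.31, 15.0 and 3.11 FPKM in young ones. Young replicate 2 exceeded old replicate 1, so the groups overlap (log2 difference 1.41 ± 0.67 SE, unadjusted p = 0.0629, limma adjusted p = 0.839). Parp9 had 8.81, 8.02 and 13.2 FPKM in old libraries and 4.17, 12.1 and 3.87 FPKM in young ones. Parp14 had 17.1, 21.0 and 20.7 FPKM in old libraries and 18.5, 30.0 and 4.96 FPKM in young ones. In young libraries all 3 genes were highest in replicate 2 and lowest in replicate 3. Parp9 and Dtx3l overlap at their 5′ ends on opposite strands of chromosome 16, so their reads may be shared.

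Other effectors included genes that varied widely between libraries. Bst2, which encodes tetherin, a membrane protein that holds budding virus on the cell, had 27.8, 40.6 and 47.5 FPKM in old libraries and 2.68, 3.74 and 200 FPKM in young ones. Young replicate 3 was 74.4-fold above young replicate 1, and the young libraries lay on both sides of the old ones. The old mean of 38.6 FPKM was below the young mean of 68.7 FPKM, while the log2 difference was 1.35 ± 1.25 (SE, limma adjusted p = 0.854), so the sign depends on the scale. Without young replicate 3 the log2 difference of Bst2 was 3.21 ± 0.519 (SE, limma adjusted p = 0.137). Tetherin also marks plasmacytoid dendritic cells, and 9 of the 10 markers of that list, Bst2 among them, were in the table. The other 8 summed to 341, 274 and 294 FPKM in old libraries and 411, 351 and 456 FPKM in young ones. Of the 8, 5 were highest among young libraries in replicate 3. So were 5 of 10 neutrophil, 5 of 10 monocyte and macrophage, and 4 of 10 plasma cell markers. Of the defining plasmacytoid dendritic genes, Siglech had 0.00955, 0.320 and 6.21 FPKM in old libraries and 14.9, 0.406 and 16.0 FPKM in young ones. Irf8 had 25.8, 20.4 and 57.5 FPKM in old libraries and 21.8, 18.1 and 44.0 FPKM in young ones. Cox6a2 differed, with 119, 24.2 and 48.4 FPKM in old libraries and 0, 12.1 and 0 FPKM in young ones. Spib was lowest among young libraries in replicate 3, with 8.04, 15.0 and 0.265 FPKM. The largest part of the sums was Ly6d, with 152, 193 and 149 FPKM in old libraries and 316, 263 and 327 FPKM in young ones. The part of plasmacytoid dendritic cells in the Bst2 values was not tested.

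Ifi27l2a, a small hydrophobic interferon-inducible protein gene, was also uneven within both groups. It had 4.24, 86.7 and 24.3 FPKM in old libraries and 8.89, 92.5 and 92.3 FPKM in young ones. Trim30a, a TRIM family gene with close copies, was steadier, with 17.1, 21.4 and 38.3 FPKM in old libraries and 22.3, 18.2 and 16.7 FPKM in young ones. Ifi35, whose product pairs with NMI, had 3.03, 25.5 and 0.126 FPKM in old libraries and 6.82, 7.21 and 3.79 FPKM in young ones. No old value lay inside the young range, with 1 above it and 2 below.

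Rsad2 and Cmpk2 are neighbours on chromosome 12, transcribed away from each other, and encode viperin and a mitochondrial nucleotide kinase. Rsad2 had 4.10, 1.34 and 1.26 FPKM in old libraries, against 0, 0.00904 and 0 FPKM in young ones. That is about 482, 164 and 151 reads in old libraries and a single read among all young ones, with a log2 difference of 1.58 ± 0.77 (SE, unadjusted p = 0.0675, limma adjusted p = 0.839). Cmpk2 had 3.62, 4.30 and 4.24 FPKM in old libraries and 2.28, 0 and 4.11 FPKM in young ones. Cmpk2 was therefore present in young replicates 1 and 3, where Rsad2 was listed at 0. Xaf1, a gene that promotes cell death in human cells, had 2.95, 0.951 and 3.24 FPKM in old libraries, against 8.21, 13.0 and 4.68 FPKM in young ones, with no overlap (log2 difference -1.49 ± 0.81 SE, limma adjusted p = 0.841). Rtp4 had 0, 2.67 and 1.57 FPKM in old libraries and 0, 0 and 7.5 FPKM in young ones. Ifi44 was listed at 0 except for 1.68 FPKM in old replicate 3 and 1.25 FPKM in young replicate 1.

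**Figure D3:**
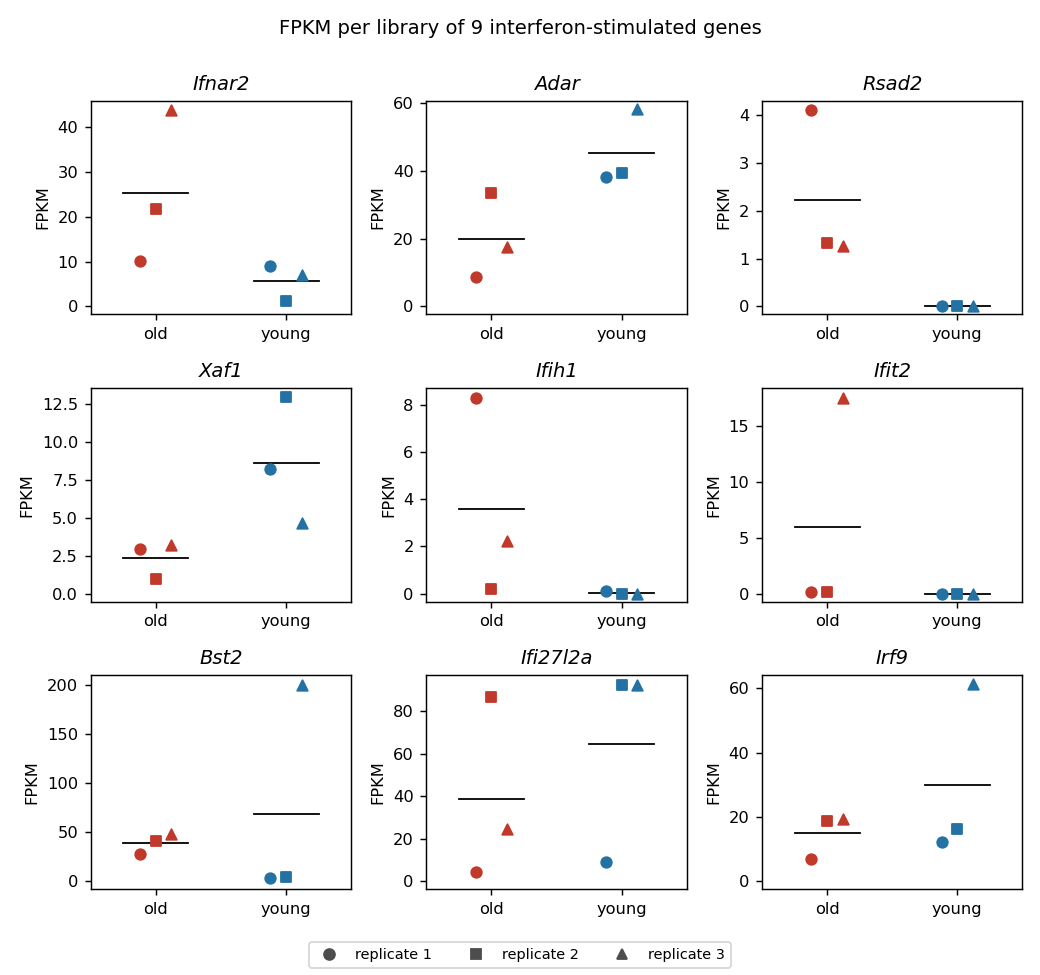
FPKM in each library (symbols by replicate, bars at group means) for the 6 genes whose groups do not overlap, namely Ifnar2, Adar, Rsad2, Xaf1, Ifih1 and Ifit2, and for Bst2, Ifi27l2a and Irf9. Adar and Xaf1 are lower in old libraries, and a single young library holds the highest value of Bst2 (200 FPKM) and of Irf9 (61.4 FPKM).

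The comparison of old with young plasma cells asked which of these genes differed with age. Limma called 0 of the 28 genes that passed the filter of a mean of at least 1 FPKM, against 0% of the 10687 genes tested, at an adjusted p under 0.05. At an unadjusted p under 0.05, 1 of 28 was higher in old libraries (Ifnar2, against 4.66% of all genes) and 1 of 28 was lower (Adar, against 1.25%). Groups did not overlap with old above young for 4 of 28 genes (Ifnar2, Rsad2, Ifih1 and Ifit2), against 8.78% of all genes. They did not overlap with old below young for 2 of 28 (Adar and Xaf1), against 3.42%. These shares rest on so few genes that 1 gene more or less moves them by 3.57 percentage points. Of the 4 genes with old above young, Rsad2, Ifih1 and Ifit2 averaged 0.003, 0.037 and 0 FPKM in young libraries. They passed the filter only through the old group, in which they were then counted as higher. Without young replicate 2, 10 genes had old above young and 2 old below, against 15.85% and 8.31% of all genes. A smaller group overlaps less often by construction. Without young replicate 3, limma called 7 of all genes tested and 0 of the antiviral genes.

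Differences of either sign occurred, in proportions near those of all genes tested, of which 6552 were positive and 4135 negative. Of the 28 genes, 18 had a positive and 10 a negative log2 difference, and the median was 0.35, against 0.23 over all genes tested. At 20 FPKM or more, 6 were positive and 7 negative, with a median of -0.15, against 1456 positive, 1379 negative and a median of 0.02 over all genes of that level. At 1 to 20 FPKM, 12 of 15 were positive with a median of 0.88, against 5096 of 7852 and a median of 0.365 over all genes of that level. A gene in that range passed the filter through the libraries in which it was present, and more genes were present in old libraries. The spread within groups, a median SD of 0.56 log2 units for the 13 abundant genes and 0.88 for the other 15, was close to the 0.56 and 1.07 of all genes at the same levels. The 95% intervals were narrowest for Isg20 and Samhd1 (-1.13 to 0.44), so a doubling of either in old libraries lies outside them. For Bst2 the interval ran from -1.44 to 4.14.

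**Figure D4:**
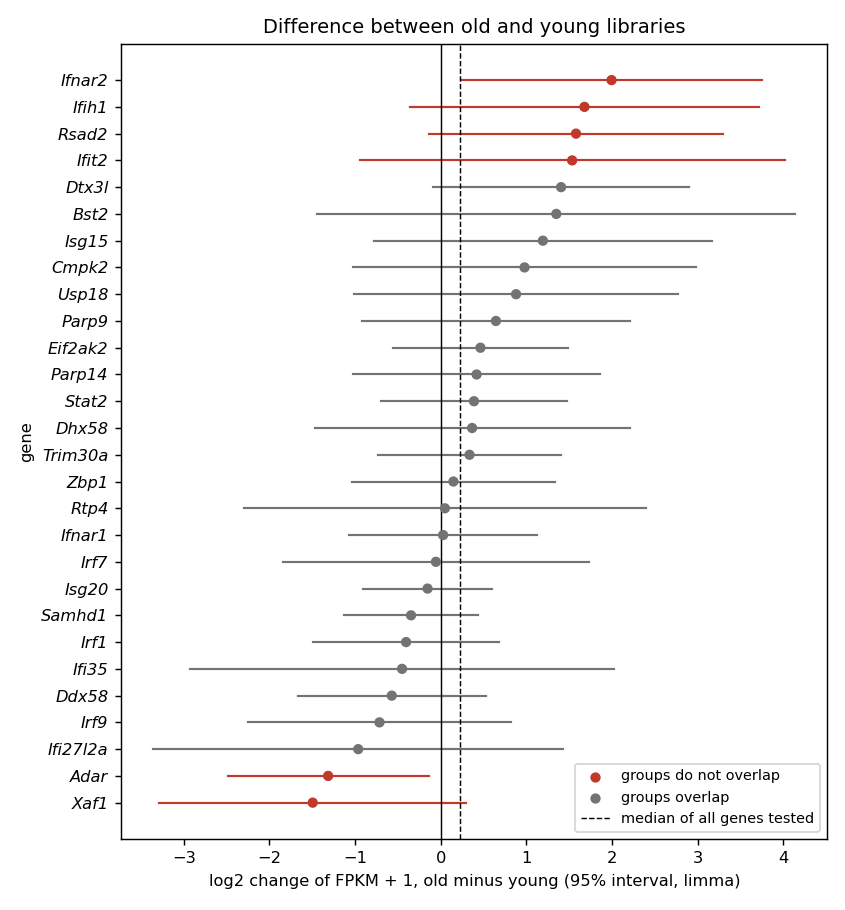
Log2 difference of FPKM + 1, old minus young, with its 95% interval from limma for the 28 tested genes, sorted by size; red marks genes whose groups do not overlap, and the dashed line is the median of all genes tested (0.23). Intervals of 26 genes include 0, the exceptions being Ifnar2 and Adar, and none passed after adjustment.

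Oas3, Oasl2, Ifi44 and Ifit3 were highest in old replicate 3 and young replicate 1, while the other 4 genes under 1 FPKM were not. Oasl1 was highest in old replicate 2, Ifit1 in young replicate 1 and then old replicate 2, and Oas1a and Oas2 in young replicate 1. Of the 8 genes under 1 FPKM, 4 reached 1 FPKM in old replicate 3 and 5 in young replicate 1, 1 did so in old replicate 2, and 0 did so in the other 3 libraries. Their summed level was 0.248, 2.61 and 7.57 FPKM in old libraries and 8.99, 0.641 and 0 FPKM in young ones. The 2 libraries with the highest sums thus belong to different age groups. Among all genes under 1 FPKM, the share reaching 1 FPKM was 9.7%, 15.9% and 22.1% in old libraries and 9.0%, 4.9% and 3.6% in young ones. In young replicate 1, 5 of these 8 antiviral genes reached it, beside the 9.0%. All but Oas2 had means of 0.38 to 0.59 FPKM, while the shares cover all genes under 1 FPKM, also those near 0. The sets were not matched in level. The genes lie on different chromosomes, Oas and Oasl genes on 5, Ifit genes on 19 and Ifi44 on 3.

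Markers of other cells moved with these libraries in part. The 8 erythroid markers in the table summed to 164, 50.5 and 893 FPKM in old libraries and 316, 17.8 and 173 FPKM in young ones, highest in old replicate 3 and, among young libraries, in replicate 1. All 8 were at or above 1 FPKM in both. Of 9 natural killer cell markers, 7 reached 1 FPKM in old replicate 3 and 1 in young replicate 1. Their sum was 14.1, 31.2 and 56.4 FPKM in old libraries and 5.55, 36.5 and 0 FPKM in young ones. Ncr1 had 0, 0.582 and 12.3 FPKM in old libraries and was listed at 0 in all young ones. Prf1 was instead highest in old replicate 2, at 30.2 FPKM, and Gzma in young replicate 2, at 32.0 FPKM. The 10 monocyte and macrophage markers summed to 1182, 1400 and 1686 FPKM in old libraries and 1129, 1213 and 1409 FPKM in young ones. Of these, 8 reached 1 FPKM in old replicate 3 and 6 in young replicate 1, and 2 were listed at 0 in each. Ctss, with 956.5 to 1061 FPKM in every library, made up most of each sum. Of 7 markers tested, 5 were higher and 2 lower in old libraries. Lyz2 had 179, 196 and 516 FPKM in old libraries and 26.8, 97.1 and 99.1 FPKM in young ones. Ly6c2 overlapped, with 5.34, 78.7 and 79.6 FPKM in old libraries and 47.7, 47.8 and 113.5 FPKM in young ones. The 10 neutrophil markers summed to 265, 1279 and 656 FPKM in old libraries and 433, 570 and 513 FPKM in young ones. The sum was highest in old replicate 2, where Isg15, Usp18 and Ifi35 were also highest. S100a9 alone had 749.5 FPKM there. Elane, Mpo and Prtn3 were instead highest in old replicate 3, with 220, 264 and 86.2 FPKM, against 19.2, 31.6 and 1.83 FPKM in old replicate 2. The part of any of these cells in the antiviral gene values was not tested.

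Of 18 genes of interferon signalling outside the list, 17 were tested, 7 with a positive and 10 with a negative log2 difference (median -0.25), and limma called 0. Groups did not overlap with old below young for 1 of 17, against 3.42% of all genes, and with old above young for 0, against 8.78%. The 1 was Ptpn1, a phosphatase that acts on the receptor's kinases, with 18.1, 13.2 and 16.8 FPKM in old libraries, against 33.4, 26.2 and 37.5 FPKM in young ones (log2 difference -0.97 ± 0.44 SE, limma adjusted p = 0.839). Jak1, the kinase of IFNAR2, had 60.1, 32.8 and 53.1 FPKM in old libraries and 47.4, 50.4 and 47.1 FPKM in young ones. Jak1 was thus present in all libraries, with overlapping groups.

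Upstream of interferon, 14 of 16 sensing genes were tested, 6 positive and 8 negative (median -0.18), and limma called 0, with 2 higher and 0 lower in old libraries at an unadjusted p under 0.05, against 4.66% and 1.25% of all genes. Groups did not overlap with old above young for 2 of 14 and with old below for 1, against 8.78% and 3.42%. Tmem173, which encodes the DNA-sensing adaptor STING, had 25.7, 47.4 and 47.6 FPKM in old libraries, against 17.0, 15.8 and 7.42 FPKM in young ones. The groups did not overlap (log2 difference 1.54 ± 0.51 SE, unadjusted p = 0.0122, limma adjusted p = 0.736). Tbk1, the kinase that STING and the RNA sensors use to activate IRF3, had 77.7, 44.3 and 54.1 FPKM in old libraries, against 40.3, 23.0 and 19.3 FPKM in young ones (log2 difference 1.10 ± 0.43 SE, unadjusted p = 0.0287, limma adjusted p = 0.829). Unc93b1, which carries nucleic acid sensing Toll-like receptors to endosomes, lay the other way, with 155, 159 and 104 FPKM in old libraries, against 170, 234 and 254 FPKM in young ones. Mb21d1, the gene of the DNA sensor cGAS that feeds STING, chosen after its values were seen, had 0, 0 and 7.06 FPKM in old libraries and 0, 0 and 11.4 FPKM in young ones. Of 21 interferon genes searched by symbol, 0 were among the 13642 genes, so their levels were not analysed.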

How the data were processed

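RNA was measured in 6 libraries of sorted plasma cells, made per the labels' protocols from 5 ng of RNA each with a stranded total-RNA kit that uses template switching, and read as paired ends. The authors deposited FPKM values per gene. The submitters' processing notes name bcl2fastq 2.17, STAR and DESeq2 and the builds GRCm38 and mm10 without roles, and the counter, annotation release and use of strand are not given in the sources used here. FPKM are not counts, so log2(FPKM + 1) was tested with limma 3.58.1 (R 4.3.3, mean-variance trend, two-sided) over the 10687 genes with a mean of at least 1 FPKM. Differences are old minus young, understate changes of low genes, and counted as calls where p, adjusted by Benjamini-Hochberg over every gene tested, was under 0.05. The fit was tested on simulated data.

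Reads per value are approximate. They come from the step of the low values and merged exon lengths of GENCODE M21, which gave coordinates and matched 13627 of 13642 identifiers; 18.4% to 31.1% of the low values lay within 0.03 of a whole read number on those lengths. Reads amplified from little RNA are not independent molecules. A value listed at 0 may also be a failed estimate. Intervals cover the spread between samples.

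The genes and lists were chosen with earlier results of these data known. Values are given for genes with a mean of at least 20 FPKM, genes whose groups do not overlap and the 6 of smallest p, and here also for the rest. Marker and pathway lists were written by hand, and from each pathway list some genes of smallest p or highest mean are named; single values of other listed genes are not reported here. Motifs were searched in RefSeq promoter windows with Python 3.11.15 and pandas 2.3.3. Alternatives were another pseudocount (0.1), no filter or a mean of at least 5 FPKM, median-ratio scaling, quantile normalization, array weights, the replicate number as a block and each library left out. Same-numbered old and young libraries did not deviate together (r = -0.0344, 0.0203 and -0.00412 over genes).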

Additional observations from a re-analysis of the deposited data

How the results depend on the processing

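Limma called 0 of the antiviral genes under each of the 13 alternatives. Over all genes tested, quantile normalization and array weights gave 1 call each, and leaving out single libraries gave 0 to 7, the most without young replicate 3. The median log2 difference of the tested antiviral genes was 0.35. It was 0.16 with no filter, -0.01 when the mean had to reach 5 FPKM, and 0.11 to 0.42 without single libraries, lowest without old replicate 2; the cause was not tested. With the replicate block the median was 0.351 and 0 genes were called; the samples share only a number in the labels, and the block changed no call. Of 241 values of named antiviral genes under alternatives, 232 kept their sign. The sign turned for Isg20 with array weights (0.0355) and in its range without single libraries (-0.392 to 0.0982), for Ifnar1 with median-ratio scaling (-0.0696) and without single libraries (-0.325 to 0.274), for Zbp1 without single libraries (-0.277 to 0.734) and for Ifi27l2a without single libraries (-2.04 to 0.093). Groups did not overlap for 6 antiviral genes, 4 with old above and 2 with old below, against 8.78% and 3.42% of all genes tested. Without young replicate 2 the counts were 10 and 2, against 15.85% and 8.31%. Without any other single library they were 4 to 6 and 2 to 3, against 12.97% to 20.39% and 5.32% to 8.39%. These comparisons were chosen after seeing the data. The lowest adjusted p of any named antiviral gene under any alternative was 0.137, for Bst2 without young replicate 3. Precision is limited by 3 libraries a group and, for the genes under 1 FPKM, by few reads.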

Other observations

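Further interferon-stimulated genes, from a list of 90 outside the large GTPases, held genes of high level. Of 78 in the table, 69 were tested, 33 with a positive and 36 with a negative log2 difference (median -0.01), and limma called 0, with 1 higher and 2 lower in old libraries at an unadjusted p under 0.05, against 4.66% and 1.25% of all genes. B2m, the light chain of MHC class I, had 2789, 4105 and 2796 FPKM in old libraries and 3045, 3899 and 2939 FPKM in young ones. Ly6e, a surface protein, had 179, 188 and 114 FPKM in old libraries, against 213, 195 and 215 FPKM in young ones, without overlap. Sp140, a chromatin reader of immune cells, had 153, 247 and 86.9 FPKM in old libraries and 152, 143 and 242 FPKM in young ones. These 3 genes and Shisa5 exceeded Isg20 in mean level.

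Ifitm2, a membrane protein that blocks virus fusion, had 5.40, 1.16 and 76.1 FPKM in old libraries and was listed at 0 in all young ones (log2 difference 3.35 ± 1.24 SE, limma adjusted p = 0.780). Its highest value was in old replicate 3, the library with the lowest sum of plasma cell markers. Shisa5 had 147, 112 and 67.3 FPKM in old libraries, against 178, 191 and 218 FPKM in young ones (log2 difference -0.90 ± 0.34 SE, limma adjusted p = 0.799). Nmi, the partner of IFI35, had 21.2, 33.7 and 10.3 FPKM in old libraries and 50.4, 30.0 and 84.0 FPKM in young ones, with overlapping groups (limma adjusted p = 0.839). Groups failed to overlap with old above for 5 of the 69 and with old below for 6, against 8.78% and 3.42% of all genes tested.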
